A study of Sus scrofa with 6 samples.

Results

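Iron handling was examined at the 13 probe sets that the array's annotation gives to 1 of 10 genes and to no other gene, out of 23999 tested. The genes are ACP5 (uteroferrin), TF, TFRC, FTH1, FTL, CP, HMOX1, HAMP, IREB2 and ACO1. They were chosen for their known part in the transport, storage and sensing of iron, and 9 of them, out of 6765 genes named on the array in this way, had a probe set of their own. CP (ceruloplasmin) was not analysed here. ACO1 had 3 probe sets, TF and FTL had 2 each and the other genes had 1. Another 7 probe sets, 5 of FTH1 and 2 of TF, share their annotation with a second gene and were given to neither.

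The samples were epithelial scrapings from the uterine horns of 3 crossbred Landrace x Large White sows on day 6. In each sow spermatozoa in diluent were placed in 1 oviduct by laparoscopy and diluent alone in the opposite oviduct. This gave 3 horns with embryos at the blastocyst stage and 3 horns with oocytes, each pair from the same sow, with 1 array for each horn. All sows had been weaned and operated on under anaesthesia, and both horns of a sow share its hormones and health. Spermatozoa reached only the side with embryos, so the effects of embryos and of spermatozoa cannot be told apart. The comparison addressed whether the blastocyst acts locally on the uterus.

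Uteroferrin is an acid phosphatase with iron in its active site that the glands of the pig uterus secrete under progesterone, and it carries iron to the conceptus. Other cells take up iron as transferrin through the transferrin receptor, store it in ferritin, and release it from haem by haem oxygenase. When iron is scarce, the iron regulatory proteins IREB2 and ACO1 bind hairpins in messenger RNAs, which protects the TFRC transcript and blocks the translation of both ferritins. A measurement of RNA therefore sees only some of these steps.

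The signals are on a linear scale in arbitrary units, and a probe set's level cannot be set against that of another. The median signal of an array was 30.6 to 35.8 with embryos and 32.1 to 35.5 with oocytes. Signals under 10 made up 25.4% to 29.0% of each array with embryos and 26.3% to 28.3% with oocytes. Differences are log2 values after normalization, embryos minus oocytes, and so are the directions given for each sow. Of 8 epithelial markers 7 had a probe set, and EPCAM, CDH1, KRT8, KRT18 and KRT19 had signals of at least 711.7 on all 6 arrays, while MUC1 had 20.4 to 34.9. Transcripts of other cells also gave signal, with at least 1209.4 for VIM and 1185.3 for DCN, of stroma, and 337.2 for ACTA2, of smooth muscle, on every array. In such bulk samples fewer cells of a type and less RNA in each cell cannot be told apart. The 5'/3' signal ratio of the GAPDH control, which is lower when RNA is broken or copied incompletely, was 0.243, 0.130 and 0.199 with embryos in sows 1, 2 and 3, against 0.355, 0.200 and 0.226 with oocytes. With actin the mean log2 5'/3' ratio was -2.91 ± 0.57 with embryos and -2.41 ± 0.50 with oocytes (SD, n = 3 each; two-sided exact permutation test, p = 0.4, where 0.1 is the smallest possible). It was lower with embryos in 3 of 3 sows.

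Of the 13 probe sets, 3 stood apart between the horns without overlap. TFRC and IREB2 lay lower with embryos and a dim probe set of TF lay higher, while the other 10 overlapped, those of uteroferrin, both ferritins and haem oxygenase among them. Over the whole array 4.03% of probe sets were higher and 3.98% lower with embryos without overlap. With limma 0 of the 13 passed an adjusted p of 0.05, as did 0 of 23999 (0%). The smallest adjusted p of the 13 was 1.00, or 0.309 in a fit that blocks on the sow. The same 3 probe sets (23.1% of the 13) reached an unadjusted p below 0.05, as did 2.88% of the array. In the blocked fit this held for 4 of the 13 (30.8%) and for 8.70% of the array. The median log2 difference of the 13 was 0.01, with 7 above 0 and 6 below, and that of all probe sets was also 0.01.

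**Figure D1:**
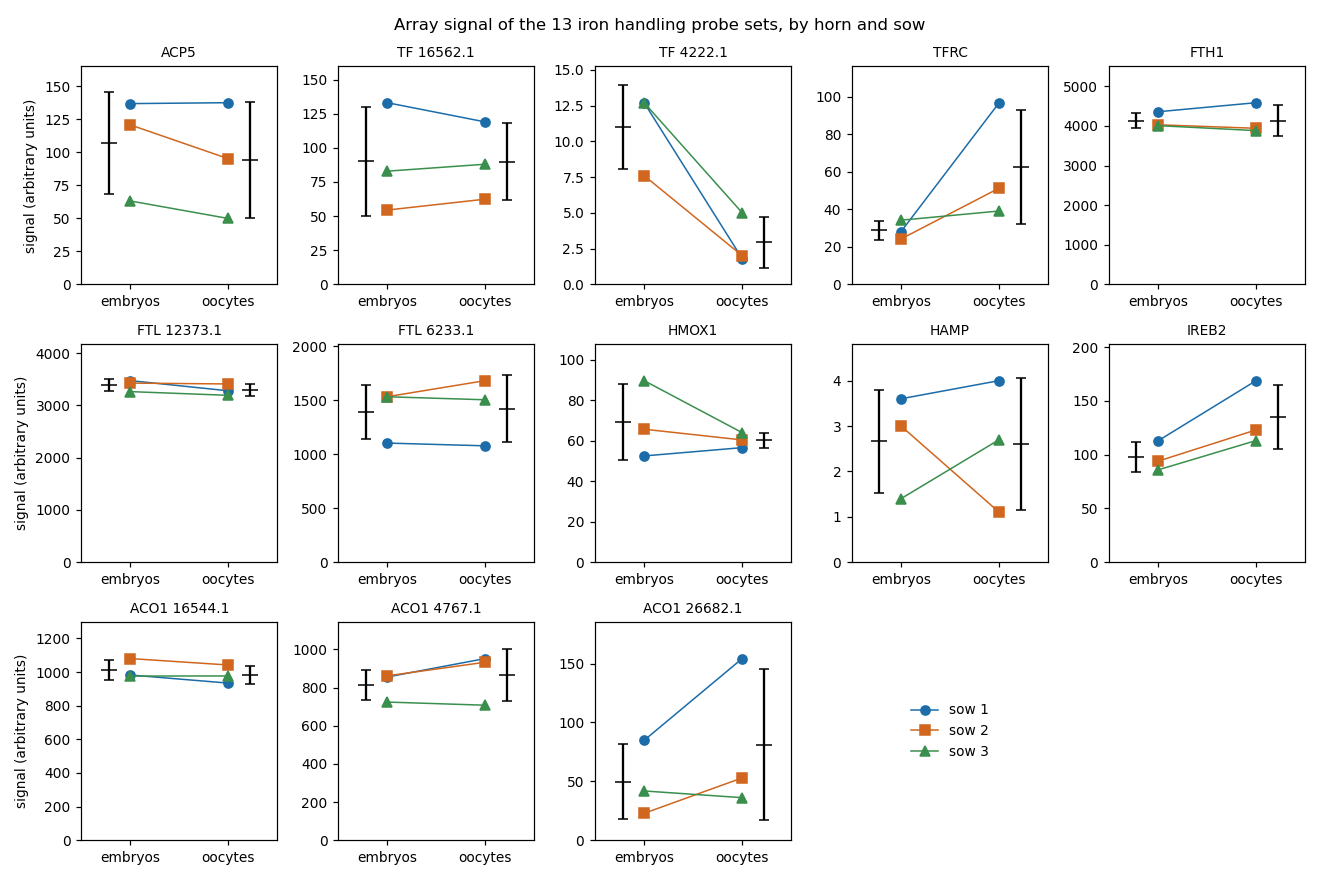
Array signal (y axis, arbitrary units, from 0) of each of the 13 probe sets in horns with embryos and with oocytes. Symbols and colours mark the sow, lines join the horns of a sow, and the bars at the sides are means ± SD (n = 3 sows). TFRC and IREB2 are lower with embryos in all 3 sows, and the sows keep their order in both horns for ACP5.

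ACP5 encodes uteroferrin itself. Its signal was 137, 120.9 and 63.2 with embryos in sows 1, 2 and 3, against 137.7, 95.2 and 49.9 with oocytes. Both horns were highest in sow 1 and lowest in sow 3, and the groups overlapped almost wholly. The means were 107 ± 38.8 with embryos and 94.3 ± 43.9 with oocytes (SD, n = 3 sows). The log2 difference was 0.22 (95% interval -0.71 to 1.15, unadjusted p = 0.600 and adjusted p = 1.00 from limma). Blocked on the sow the 95% interval was -0.08 to 0.52, with an unadjusted p of 0.129 and an adjusted p of 0.683 from limma. Within sows the log2 difference was -0.03, 0.36 and 0.33. It became -0.18 without the oocytes of sow 3, 0.02 without the embryos of sow 1, 0.08 without the embryos of sow 2, 0.55 without the oocytes of sow 1 and 0.57 without the embryos of sow 3.

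The spread of ACP5 lay between the animals. Of the sum of squares of its 6 log2 signals, 93.8% fell between sows, 3.84% between horns and 2.41% on the rest. For the median probe set of above-median signal 66.3% fell between sows. Among 6103 other probe sets with 1 symbol and above-median signal, those most like ACP5 were CRYAB, a small heat shock protein, S100B, a calcium-binding protein, and GSTM3, a glutathione transferase. Their centred log2 signals differed from those of ACP5 by a mean of 0.12, 0.14 and 0.15 over the 6 arrays. CRYAB had 222.2, 219.3 and 107.2 with embryos and 259.6, 221.3 and 93.7 with oocytes in the same sows. These are likenesses over 3 animals only.

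UABP-2, the uteroferrin-associated basic protein, is a serpin-like protein that binds uteroferrin in uterine fluid. It was dim, with a mean signal of 7.93 with embryos and 4.87 with oocytes, and its log2 difference of 1.32 (standard error 0.95, unadjusted p = 0.201 from limma) became 0.12 when 32 was added to each signal. It rests on the oocytes of sow 1, at 0.70, without which it was 0.18, and it was 2.10 without the oocytes of sow 2. Among the other acid phosphatases, which are enzymes of other families, ACP1 had 554.8 with embryos and 609 with oocytes and ACP6 had 45.2 with embryos and 50.6 with oocytes. Both were lower with embryos in 3 of 3 sows, at -0.14 (standard error 0.10) for ACP1, whose groups did not overlap, and -0.18 (standard error 0.20) for ACP6, whose groups overlapped in the deposited signals but not after normalization. Their unadjusted p were 0.224 and 0.397 from limma. Over the whole array 3.98% of probe sets were lower with embryos without overlap. ACP2 and ACPP, which the naming rule left out, went in different directions. ACP2 lay at 0.13 (standard error 0.23), and its 3 probe sets ran from 0.09 to 0.19. ACPP was dim, with a mean signal of 5.73 with embryos and 7.80 with oocytes, at -0.50 (standard error 0.57).

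TFRC is the receptor that takes transferrin with its iron into the cell. Its signal was 28.1, 24.2 and 34.2 with embryos in sows 1, 2 and 3, against 96.9, 51.3 and 39.1 with oocytes. Every horn with embryos lay below every horn with oocytes, and the horns with oocytes were spread far wider than those with embryos. The means were 28.8 ± 5.04 with embryos and 62.4 ± 30.5 with oocytes (SD, n = 3 sows). The log2 difference was -1.03 (standard error 0.34, 95% interval -1.79 to -0.26), with an unadjusted p of 0.0144 and an adjusted p of 1.00 from limma, which ranked 145 among the 23999 unadjusted p. Blocked on the sow the 95% interval was -1.66 to -0.39, with an unadjusted p of 0.00492 and an adjusted p of 0.365 from limma. Within sows the log2 difference was -1.82, -1.04 and -0.22. Sow 1 gave the largest of these, and without its oocytes the log2 difference was -0.69 (unadjusted p = 0.0522). The TFRC signals with embryos lay near the median signals of those arrays, 35.8, 30.6 and 33.2 in sows 1, 2 and 3, and detection calls were not used. With 32 added to each signal the log2 difference of TFRC was -0.60.

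Like TFRC, the 5'/3' control ratio was lower with embryos in each sow, by -0.55, -0.74 and -0.19 on the log2 scale. Over the 6 arrays the mean log2 ratio was highest, at -1.84, with oocytes in sow 1 and lowest, at -3.53, with embryos in sow 2. TFRC was highest and lowest on these same arrays. The order of the other arrays differed. The mean log2 ratio was -2.39 with embryos in sow 1, above the -2.78 and -2.61 with oocytes in sows 2 and 3, where TFRC was higher. The part of the ratio in the TFRC difference was not tested. The largest TFRC difference was in sow 1 and the largest ratio difference in sow 2, and both were smallest in sow 3. The probe sets most like TFRC over the 6 arrays were those of FNBP4, a formin-binding protein, U2SURP, a splicing protein, and SYNCRIP, an RNA-binding protein, at mean distances of 0.18, 0.18 and 0.22. FNBP4 had 46.0, 45.9 and 54.6 with embryos and 111.2, 85.8 and 79.6 with oocytes. U2SURP had 32.4, 19.4 and 29.7 with embryos and 60.4, 39.8 and 31.3 with oocytes. These probe sets were picked for their likeness to TFRC over the same 6 arrays. Their lower signals with embryos follow from that choice and are no separate evidence.

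The symbol TF covers a pair of neighbouring genes in the current pig gene table, with 0 protein-coding genes between them. One of them has the synonym PICA, a transferrin relative known as the porcine inhibitor of carbonic anhydrase, and the other has no synonym. The 2 TF probe sets fall on different genes of this pair, so they cannot be read as repeats of one transcript. The probe set of the PICA gene (Ssc.16562.1.S1_at) had 133.1, 54.4 and 82.9 with embryos in sows 1, 2 and 3, against 119.0, 62.4 and 88.0 with oocytes. Its log2 difference was -0.05 (95% interval -0.82 to 0.73, unadjusted p = 0.896 from limma), and 97.4% of its sum of squares fell between sows.

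The probe set of the other TF gene (Ssc.4222.1.S1_at) had 12.7, 7.6 and 12.7 with embryos, against 1.8, 2.0 and 5.0 with oocytes. It was higher with embryos in 3 of 3 sows and without overlap. These signals are low for the array, and without detection calls it is not known whether the transcript was detected. The means were 11.0 ± 2.94 with embryos and 2.93 ± 1.79 with oocytes (SD, n = 3 sows). The log2 difference was 2.01 (standard error 0.63, 95% interval 0.57 to 3.44, unadjusted p = 0.0117 and adjusted p = 1.00 from limma). With 32 added to each signal it was 0.29, and the probe set is not among those above the median signal. The liver, which makes plasma transferrin, also makes albumin, and ALB had 2.40, 11.9 and 5.50 with embryos, against 1.60, 2.40 and 2.10 with oocytes. Of the 3 liver markers, ALB was the only 1 higher with embryos in all 3 sows. AHSG had 22.6, 34.9 and 28.5 with embryos, against 41.3, 24.0 and 24.0 with oocytes. APOA2 had 2.50, 13.3 and 9.10 with embryos, against 11.0, 6.60 and 1.70 with oocytes. All 3 liver markers had a probe set, and their summed signal was 27.5 to 60.1 with embryos and 27.8 to 53.9 with oocytes. The part of blood or liver transcripts in the TF signal was not tested.

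FTH1 and FTL encode the heavy and light chains of ferritin, the shell that stores iron. FTH1 had 4358.6, 4029.6 and 4008.4 with embryos in sows 1, 2 and 3, against 4587.8, 3940.8 and 3882.3 with oocytes. The log2 difference was 0.01 (95% interval -0.25 to 0.27). The brighter FTL probe set had 3388 ± 110 with embryos and 3294 ± 109 with oocytes, a log2 difference of 0.05 (95% interval -0.17 to 0.27). The dimmer FTL probe set had 1388 ± 248 with embryos and 1420 ± 310 with oocytes (SD, n = 3 sows), a log2 difference of -0.02 (95% interval -0.44 to 0.40). For these 3 probe sets the unadjusted p ran from 0.621 to 0.923 with limma. The intervals of FTH1 and of the brighter FTL probe set are short beside those of ACP5 or TFRC. At the dimmer FTL probe set 96.5% of the sum of squares fell between sows, with sow 1 low in both horns at 1102.6 with embryos and 1077.1 with oocytes. The 7 probe sets with a second gene had log2 differences from -0.79 to 0.25 and unadjusted p from 0.227 to 0.928 with limma. Of these, 5 name HDHD2 beside FTH1. The other 2 name LOC100515857 beside the TF gene with the synonym PICA.

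**Figure D2:**
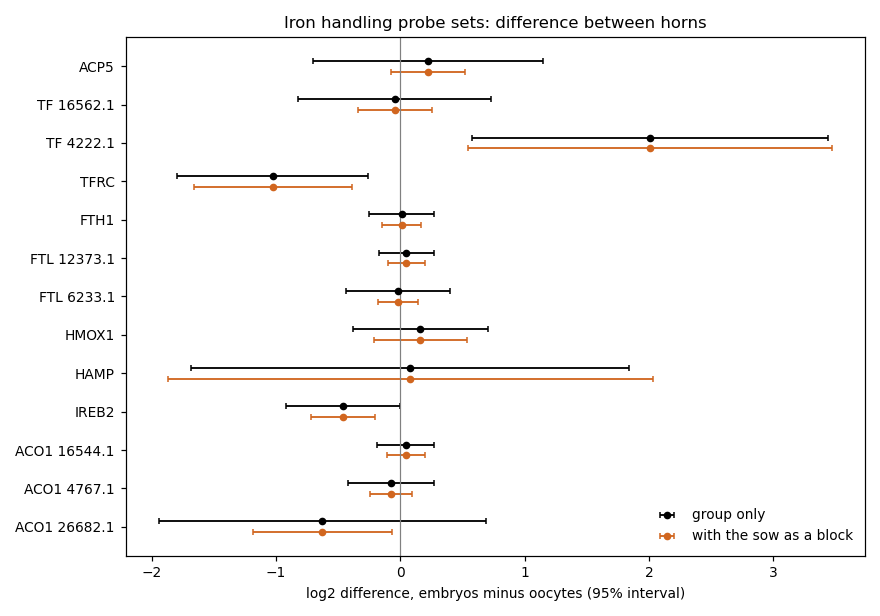
Log2 difference, embryos minus oocytes (x axis), of the 13 probe sets, with 95% intervals from the fit on the group alone (black) and from the fit blocked on the sow (orange). The intervals of TFRC, IREB2 and 1 TF probe set leave out 0 in both fits, and those of both ferritins span it.

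HMOX1, the inducible haem oxygenase that opens haem and frees its iron, had 52.5, 65.7 and 89.7 with embryos in sows 1, 2 and 3, against 56.6, 60.4 and 64.0 with oocytes. Sow 3 with embryos stood above the other 5 horns. The log2 difference was 0.16 (95% interval -0.38 to 0.70, unadjusted p = 0.513 from limma), and -0.04 without the embryos of sow 3. The suffix of its probe set marks probes that may match more than 1 transcript. Macrophages use HMOX1 and also make an acid phosphatase from ACP5, and of 4 macrophage markers with a probe set 3 were higher with embryos in all 3 sows at their brightest probe set, one of them CD163, whose other probe set lay at -0.35. Their summed signal was 92.6 to 130.8 with embryos and 63.2 to 95.6 with oocytes. MARCO had 28.3, 19.3 and 14.5 with embryos and 11.0, 8.20 and 4.0 with oocytes. AIF1 had 43.1, 57.6 and 45.3 with embryos and 41.6, 43.5 and 28.2 with oocytes. In the deposited signals MARCO did not overlap between the groups, while CD14, CD163 and AIF1 did. Over the array 14.9% of probe sets were higher with embryos in all 3 sows, and 1 of the 4 markers lay above the median signal. Of 4 leukocyte markers with a probe set, 0 were higher and 1 was lower with embryos in all 3 sows. Their median log2 difference was -0.29. The part of macrophages in the ACP5 and HMOX1 signals was not tested.

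HAMP encodes hepcidin, the liver hormone that blocks iron export. Its signal was 1.40 to 3.60 with embryos and 1.10 to 4.0 with oocytes, near the bottom of the array on every horn. The log2 difference of 0.08 had a 95% interval from -1.68 to 1.84, and this probe set carries little on the comparison.

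IREB2, iron regulatory protein 2, which the cell degrades when iron is plentiful, had 112.8, 93.9 and 85.8 with embryos in sows 1, 2 and 3, against 168.8, 123.0 and 113.1 with oocytes. The highest horn with embryos lay just below the lowest with oocytes, so the groups did not overlap by a narrow margin. The means were 97.5 ± 13.9 with embryos and 135 ± 29.7 with oocytes (SD, n = 3 sows). The log2 difference was -0.46 (standard error 0.20, 95% interval -0.92 to -0.00158, unadjusted p = 0.0494 and adjusted p = 1.00 from limma). Within sows it was -0.60, -0.38 and -0.41, a closer match between sows than for TFRC. The unadjusted p lay at the edge of the threshold. It was 0.0399 when the arrays were scaled to the same median and 0.00264 (adjusted p = 0.309) when blocked on the sow, but 0.0508 to 0.0950 under the other 5 ways of processing. With 1 array left out it ran from 0.0329 to 0.176 and missed the threshold in 4 of 6 cases, with the smallest log2 difference, -0.29, without the oocytes of sow 1. As for TFRC, the 5'/3' control ratio was lower with embryos in the same 3 sows, and its part was not tested.

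ACO1, which is either the cytosolic aconitase with an iron-sulphur cluster or, without the cluster, iron regulatory protein 1, had 3 probe sets that did not move alike. The brightest had 1013 ± 58.4 with embryos and 984 ± 54.2 with oocytes, a log2 difference of 0.04 (95% interval -0.19 to 0.27). The next had 814 ± 77.7 with embryos and 864 ± 136 with oocytes, a log2 difference of -0.08 (95% interval -0.42 to 0.27). The dim one (Ssc.26682.1.A1_at) had 84.8, 22.8 and 41.8 with embryos, against 154.3, 52.9 and 36.1 with oocytes. It was lower with embryos in 2 of 3 sows, with a log2 difference of -0.63 (95% interval -1.94 to 0.69, unadjusted p = 0.306 from limma). Blocked on the sow its unadjusted p was 0.0309, and without the oocytes of sow 1 the log2 difference was -0.04. Without the embryos of sow 2 it was -0.19.

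**Figure D3:**
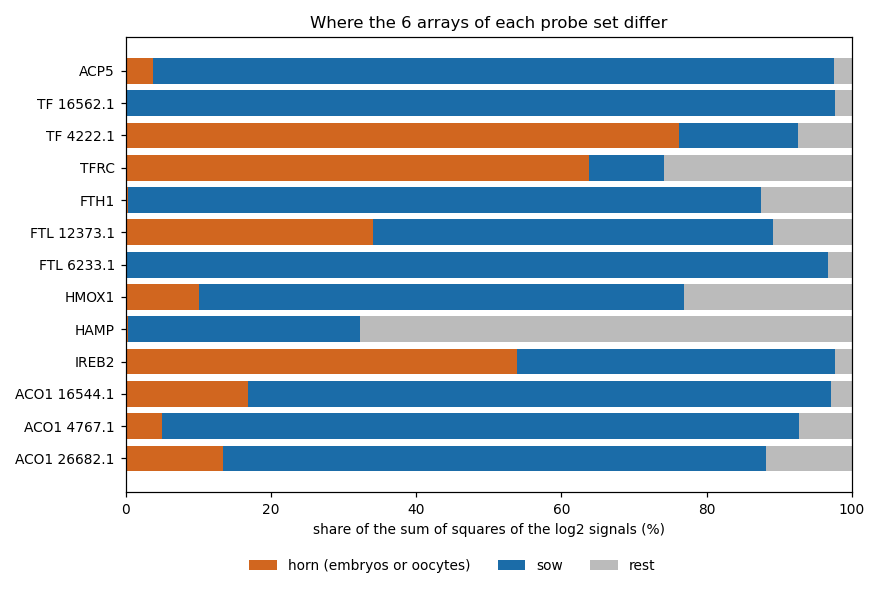
Share of the sum of squares of the 6 log2 signals (x axis, %) that fell between horns (orange), between sows (blue) and on the rest (grey) for each of the 13 probe sets. The horn took the largest share for TFRC, IREB2 and 1 TF probe set, and the sow for all others except HAMP.

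The sow took 74.7% of the sum of squares at the median of the 13 probe sets and 54.1% over all probe sets. Among probe sets above the median signal, where 11 of the 13 lie, the median was 66.3%. The horn took 63.8% for TFRC, 53.8% for IREB2 and 76.2% for the dim TF probe set, against a median of 9.72% over all probe sets. TFRC was also the one of these with a large remainder, 25.8%, since its difference varied so much between sows. For the other 10 probe sets the horn took 0.218% to 34.1%, the highest at the brighter FTL probe set. These shares restate the same 6 signals and carry no test. In all, 3 of the 13 probe sets (23.1%) were higher with embryos in each sow, TF, the brighter FTL and the brightest ACO1, against 14.9% of all. TFRC and IREB2, 2 of 13 (15.4%), were lower in each sow, against 14.8% of all, so these shares were near those of the array.

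**Figure D4:**
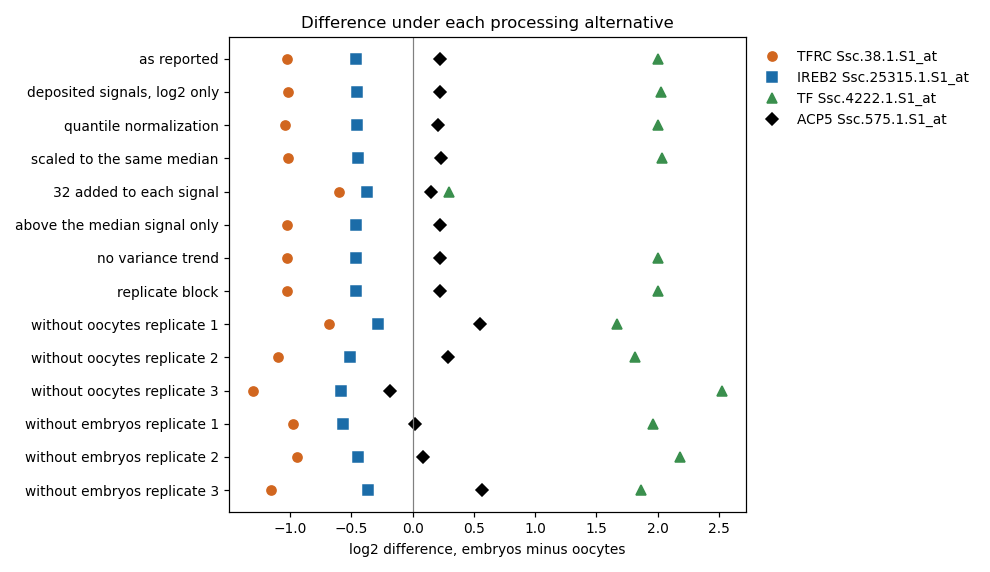
Log2 difference, embryos minus oocytes (x axis), of TFRC, IREB2, ACP5 and the dim TF probe set as reported and under each processing alternative (y axis, a replicate being a sow). TFRC and IREB2 stay below 0 under each. TF stays above 0 wherever it was tested, and the test above the median signal left it out. ACP5 is -0.18 without the oocytes of sow 3.

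Beyond these genes, 46 other genes of iron and haem handling had a probe set, from 9 role groups written as 90 symbols with older symbols included. With limma 0 of the 46 passed the adjusted threshold and 0 reached an unadjusted p below 0.05, against 4 (8.70%) in the blocked fit, where 8.70% of the array did. Of the 46, 21 lay above 0 and 25 below, with a median log2 difference of -0.03. In all 3 sows 5 (10.9%) were higher and 7 (15.2%) lower. These shares were near the 14.9% and 14.8% of the array.

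For uptake and reduction 5 of 5 genes lay between 0.01 and 0.35 at their brightest probe set. SLC11A2, the DMT1 importer that moves iron out of the endosome, had 193 with embryos and 192 with oocytes, a log2 difference of 0.02 (standard error 0.23). Its 4 probe sets ran from -1.49 to 0.09 with a mean of -0.40, so that over all of them it lay below 0. SLC39A14, a zinc and iron importer, lay at 0.14 (standard error 0.24) and STEAP1, of a family of metal reductases, at 0.35 (standard error 0.37). STEAP1 was dim, with a mean signal of 17.0 with embryos and 13.1 with oocytes. Its log2 difference was 0.11, 0.91 and 0.03 in sows 1, 2 and 3, and 0.11 with 32 added to each signal. Of the 5 symbols listed for export only FLVCR2, a transporter of the FLVCR family, had a probe set, and its level is no measure of iron export. FLVCR2 lay at -0.45 (standard error 0.30) with 47.4 with embryos and 60.8 with oocytes, and at -0.77 to -0.22 with 1 array left out. NCOA4, which delivers ferritin to the lysosome for breakdown, had 499.5 with embryos and 556.5 with oocytes and was lower in 3 of 3 sows, at -0.15 (standard error 0.16), but at -0.027 without the oocytes of sow 3. The iron chaperone PCBP2 lay at 0.14 and the mitochondrial importer SLC25A37 (mitoferrin 1) at 0.00.

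Of the 4 genes of regulation, FBXL5, the iron-sensing ligase subunit that marks IREB2 for degradation, had 349 with embryos and 346 with oocytes, a log2 difference of 0.03 (standard error 0.17), and 0.38 at its dimmer probe set. EPAS1, an oxygen-sensing factor whose transcript bears an iron-responsive hairpin, had 69.2 with embryos and 99.9 with oocytes. Its log2 difference was -0.44 (standard error 0.43, limma's unadjusted p = 0.333, and 0.0264 when blocked on the sow), with -0.79, -0.54 and -0.0058 in sows 1, 2 and 3. In sow 3 the deposited signals were 61.3 with embryos and 60.9 with oocytes, and without the oocytes of sow 1 the difference turned to 0.035. NEO1, a receptor of the hepcidin pathway, lay at -0.17 (standard error 0.20) at its brighter probe set and at 0.30 at the other.

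In haem synthesis 4 of 6 genes lay above 0 (median 0.09), with ALAD at 0.14, UROD at 0.13 and FECH, the last enzyme, at -0.07. ALAS2, the first enzyme in red cells, picked after its values were seen because it is also a red cell marker, had 134.5, 401.1 and 728.5 with embryos and 70.0, 442.2 and 675.2 with oocytes in sows 1, 2 and 3. It was lowest in sow 1 and highest in sow 3 in both horns. The red cell marker AHSP kept that order, at 26.1, 62.3 and 153.2 with embryos and 20.8, 61.5 and 158 with oocytes. HBB did not, at 288.9, 254.8 and 213.2 with embryos and 291.8, 251.3 and 290.8 with oocytes. The summed signal of the 3 red cell markers, ALAS2 included, was 449.5 to 1094.9 with embryos and 382.6 to 1124 with oocytes. In haem binding and breakdown 6 of 8 lay below 0 (median -0.08). PGRMC1, a haem-binding membrane protein, had 2596 with embryos and 2978 with oocytes, and was lower in 3 of 3 sows at -0.20 (standard error 0.15, limma's unadjusted p = 0.206, and 0.0185 when blocked). Without the embryos of sow 3 it was -0.07. HEBP2, a haem-binding protein, lay at -0.15. CD163, the haemoglobin scavenger receptor of macrophages, which is also one of the macrophage markers above, had 32.4 with embryos and 24.6 with oocytes, a log2 difference of 0.38 (standard error 0.30) at its brighter probe set and -0.35 at the other.

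Of 13 genes of iron-sulphur clusters 9 lay below 0, with a median of -0.05. ISCU, the scaffold on which the clusters are built, had 354.6 with embryos and 419 with oocytes, a log2 difference of -0.24 (standard error 0.20, limma's unadjusted p = 0.254, and 0.0192 when blocked). It was lower in 3 of 3 sows, but at -0.073 without the oocytes of sow 1 and -0.078 without the embryos of sow 2. NUBP1 lay at -0.23 (standard error 0.28) and BOLA3 at 0.15 (standard error 0.16). LTF, lactoferrin, which binds iron in mucosal secretions and is a relative of transferrin, was dim, with a mean signal of 19.8 with embryos and 8.57 with oocytes. It was higher in 3 of 3 sows, at 1.17 (standard error 0.69, limma's unadjusted p = 0.123, and 0.0321 when blocked), and at 0.32 with 32 added to each signal. With 1 array left out it ran from 0.56, without the embryos of sow 2, to 1.64, without the oocytes of sow 2. LTF is also a protein of neutrophil granules, which no marker list here covers.

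**Figure D5:**
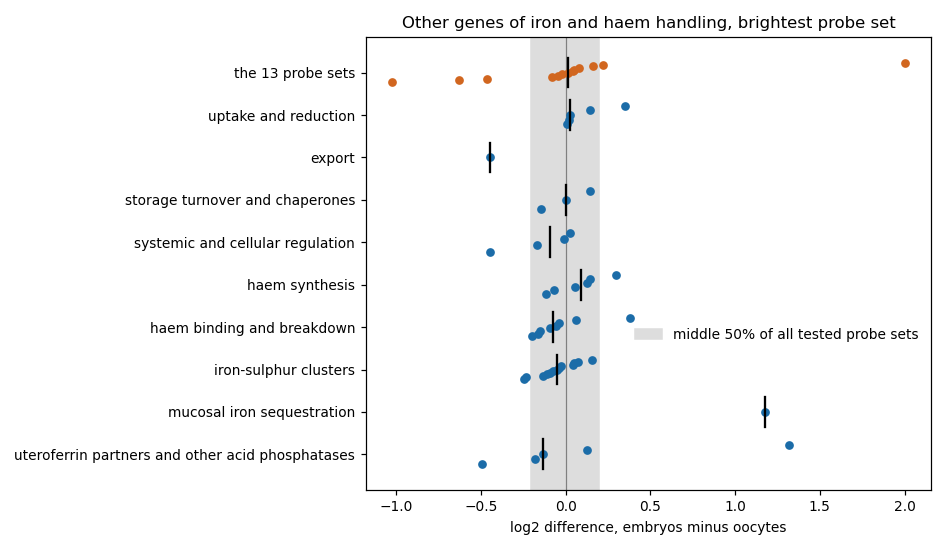
Log2 difference, embryos minus oocytes (x axis), of the 13 probe sets (orange) and of 46 other genes of iron and haem handling at their brightest probe set (blue), by role (y axis). Black lines are medians and the grey band holds the middle 50% of all tested probe sets, from -0.21 to 0.20. Most of the 46 lie in or near the band.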

How the data were processed

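Epithelial cells scraped from both uterine horns of 3 sows were measured on 6 Affymetrix porcine arrays, 1 for each horn. The deposited values are intensity signals for each probe set on a linear scale, made by the authors with Microarray Suite (MAS5 version 5.1). The mean of each array without its highest and lowest 2% was 100.02, which shows no trace of the Lowess normalization in the methods. Detection calls were not used here. Signals under 0.1 were set to 0.1, put on a log2 scale and normalized between arrays by cyclic loess, after which 124 control probe sets were removed and 23999 tested with limma 3.58.1 in R 4.3.3 for the difference between the groups, with variances moderated along the mean signal and p-values adjusted by Benjamini-Hochberg (threshold 0.05). No filter on low signals was used. Intervals are 95% intervals of limma. Summaries and plots were made with pandas 2.3.3 and matplotlib 3.10.9 in Python 3.11.15, and the fit was tested on simulated data. Arrays have no sequencing depth, and 3 arrays in a group limit the precision.

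Gene symbols come from the annotation of the array, which names a single gene at 10069 of the probe sets, more than one at 198 and no gene at 13732. Of the single symbols 9961 could be looked up by gene ID in a current pig gene table (Sscrofa11.1), and 0 had changed. A probe set with several symbols was given to no gene. The arrays are numbered 1 to 3 in each group, and ratios that the methods give for each animal equal those of arrays with the same number, so that number was taken as the sow. After subtraction of the group mean, the arrays of a sow correlated at 0.207, 0.173 and 0.100. The model in the methods has no term for the sow, and a fit blocked on the sow was an alternative. Further alternatives were log2 signals without loess, a common median for all arrays, quantile normalization, a constant of 32 before the log, a test restricted to signals above the median, variances without a trend, averages over a gene's probe sets, and each array left out in turn.

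All probe sets of the 10 genes are named. Of the other iron genes, up to 3 with the smallest p in each role group are named, at the brightest probe set. ALAS2, ACP2 and ACPP are named outside this rule. The genes and lists were chosen with earlier results of these data known.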

Additional observations from a re-analysis of the deposited data

How the results depend on the processing

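Under each alternative fitted, 0 probe sets of the array, 0 of the 13 and 0 of the 46 other iron genes passed the adjusted threshold with limma. The test of signals above the median held only 11 of the 13 and 39 of the 46, and the mean over a gene's probe sets was used for directions only. At an unadjusted p under 0.05 there were 692 probe sets, and 2088 with the sow as a block, 232 when only probe sets above the median signal were tested and 554 to 1036 with 1 array left out. For the 13 this count was 3, also when scaled to the same median. It was 4 with the sow as a block and 2 with log2 signals without loess, quantile normalization, 32 added or no variance trend, IREB2 being lost in each. It was 1 above the median signal, where TF was not tested and IREB2 was lost, and 1 to 3 with 1 array left out, 1 being the count without the oocytes of sow 1. For the 46 it was 0, with 4 under the sow as a block and 0 to 1 with 1 array left out (FLVCR2, without the embryos of sow 1). A total of 25 of the 46 lay below 0, against 21 to 28 with 1 array left out, 24 to 25 under the other alternatives on all 46, and 22 of the 39 above the median signal. Of the 13, 6 kept their direction under each alternative that tested them, among them TFRC (-1.30 to -0.60), IREB2 (-0.58 to -0.29) and the dim TF probe set (0.29 to 2.53). The other 7 turned only when 1 array was left out. Then ACP5 ran from -0.18 to 0.57, the PICA probe set of TF from -0.36 to 0.26, FTH1 from -0.035 to 0.10, the dimmer FTL from -0.19 to 0.12, HMOX1 from -0.038 to 0.37, HAMP from -0.46 to 0.48 and the second ACO1 probe set from -0.22 to 0.018. Likewise SLC11A2 ran from -0.15 to 0.22, SLC39A14 from -0.044 to 0.29, PCBP2 from -0.0036 to 0.37, SLC25A37 from -0.13 to 0.18, FBXL5 from -0.10 to 0.20, EPAS1 from -0.75 to 0.035, FECH from -0.15 to 0.031 and NUBP1 from -0.40 to 0.021. The cause was not tested. Adjusted p over all alternatives was at least 0.309 for the 36 probe sets that the naming rule chose. With 32 added before the log the dim TF, LTF and UABP-2 probe sets lay at 0.29, 0.32 and 0.12.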
